A study of Mus musculus with 2 samples.

Results

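The set described here holds the transcript models that the submitters' tables class as antisense new genes, which are models that no gene of the annotation explains and that lie on the strand opposite to another gene. A model entered the set when its row carried that class and did not belong to a spike-in. This gave 12989 of the 125484 models with reads in replicate 1 and 5531 of the 65152 models in replicate 2. The models were grouped by the tables into 12416 loci in replicate 1 and 5358 loci in replicate 2, and each locus is one new gene identifier on one strand. The gene on the other strand is called the host below.

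The series holds 2 long-read RNA-seq libraries of 1 group, made from total RNA of adrenal glands of female mice of the strain B6CASTF1/J aged 2 months. The strain name denotes the F1 hybrid of C57BL/6J and CAST mice, no genotype change or treatment is labelled, and the libraries are labelled as biological replicates 1 and 2. Both carry the same donor identifier, the tissue labels name Female 03 for replicate 1 and Female 04 for replicate 2, and the library label names Female 03 for both, so the labels do not settle whether the replicates are separate animals. There is no second condition, and each comparison between the libraries is one of replicate 1 over replicate 2.

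Antisense transcription produces RNA from the strand opposite to a gene, and mammalian genomes carry it at many loci, either as annotated noncoding genes, as divergent transcripts of active promoters or as transcripts that run in from a neighbour beyond its end. A long read can show where such an RNA starts, ends and is spliced, when it spans the molecule in 1 piece. Long-read libraries are usually primed on the poly(A) tail, a primer that can also pair with a run of A inside an RNA, and the strand of a read must be set from its primers, its tail or its splice sites, so that the base sequence at model ends and joins belongs to the description of these models.

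Sequences of joins, 3′ ends and 5′ ends carry the description and are shown first. They were read from the GENCODE transcripts placed on mm10 and are written 5′ to 3′ on the named strand. The joins are shown because an antisense model that uses an intron of its host has a join that is the reverse complement of the host's join. In these pairs the first 12 bases are the end of the upstream exon and the capitals mark the first 12 bases of the downstream exon.
Crebbp mRNA, intron chr16:4128687-4137365, minus strand: gaaaccaacaaaCCATCCTGGGAT
Crebbp antisense model, same intron, plus strand: atcccaggatggTTTGTTGGTTTC
Igf1r mRNA, intron chr7:67952953-68003809, plus strand: cgagtggagaaaTCTGTGGGCCCG
Igf1r antisense model, same intron, minus strand: cgggcccacagaTTTCTCCACTCG
Ubl3 mRNA, intron chr5:148512003-148551952, minus strand: ccggcggatatgATTAATTTGCGC
Ubl3 antisense model, same intron, plus strand: gcgcaaattaatCATATCCGCCGG

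The 3′ ends of 6 abundant models are shown because 5 of them stop directly before a run of A in the genome, whereas the model antisense to Ywhaz does not. The lower-case letters are the last 10 bases of the model and the capitals mark the next 20 bases of the genome.
Actb antisense, chr5:142903492-142903521, plus strand: gacaaaaccaAAAAAAAAAAAAAACAAAAC
Tacc1 antisense, chr8:25158024-25158053, plus strand: agattaaggcAAAAAAAAAAAAAAAAAAAA
2900097C17Rik antisense, chr2:156391505-156391534, plus strand: cacaaaatgtAAAAAAAAAAAAAAAAAAAA
Neat1 antisense, chr19:5841874-5841903, plus strand: gtcatgtaccAAAAAAAAAAAAAAAAAACC
Soat1 antisense, chr1:156428523-156428552, plus strand: acatggtttgAAAAAAAAAAAAAAAAAAAA
Ywhaz antisense, chr15:36771695-36771724, plus strand: gttgaaaagtCCATTCATAAAACTTTTATT

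The 5′ ends at Tacc1 and Ywhaz are shown because their first base is the last base of an annotated transcript of the host. The capitals mark the polyadenylation signal AATAAA in the Ywhaz mRNA and its complement in the antisense model, and the Tacc1 window holds no such letters.
Tacc1 antisense, first 25 bases, chr8:25154552-25154576, plus strand: tgcaacagtggtaaacggtttttat
Tacc1 mRNA, last 25 bases, same interval, minus strand: ataaaaaccgtttaccactgttgca
Ywhaz antisense, first 25 bases, chr15:36770770-36770794, plus strand: tcccatcatcaataTTTATTgagca
Ywhaz mRNA, last 25 bases, same interval, minus strand: tgctcAATAAAtattgatgatggga

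The deposited values are whole reads per model, 1259794 in replicate 1 and 515546 in replicate 2 without spike-ins, so that 1 read stands for 0.794 CPM (counts scaled to a common library total) in replicate 1 and 1.94 CPM in replicate 2, and intervals and tests cover counting error only. The defining markers of the adrenal gland were present, with abundant cortex and medulla genes, and some of their levels differed between the libraries. Cyp11a1 had 19420 and 19364 CPM in replicates 1 and 2, while Cyp21a1 had 13462 and 27371 CPM. Of the medulla, Chgb had 5136 and 2285 CPM, Pnmt 383 and 190 CPM, and Th 1255 and 1336 CPM. Kidney markers had at most 4 reads each, and Alb of liver had 107 and 21 reads. Fat markers were present (Cfd 2381 and 1862 CPM, Ucp1 412 and 749 CPM).

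Antisense models took up a small part of each library, and a larger part of replicate 1. They held 43317 reads or 3.44% of the total in replicate 1 (exact Clopper-Pearson 95% interval 3.41% to 3.47%) and 11000 reads or 2.13% in replicate 2 (2.09% to 2.17%), a mean of 2.79% ± 0.923 (SD, n = 2). The share was 1.61 times higher in replicate 1 (two-sided Fisher's exact test on the reads, p at most 1e-300), which compares these libraries and not a condition. Unannotated intergenic models held 0.501% and 0.321% of the reads in replicates 1 and 2, and the 2959 annotated genes of type antisense held 0.218% and 0.161%. In bulk RNA, fewer cells of a type and less RNA per cell cannot be told apart.

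The excess of replicate 1 lay mostly in models over host exons. Models that overlapped a host exon held 2.62% of all reads in replicate 1 and 1.45% in replicate 2, which is 1.81-fold. Models that touched a host 3′ UTR held 1.44% and 0.575%, or 2.50-fold. Models with a host but no base in its exons differed far less, with 0.755% in replicate 1 and 0.664% in replicate 2, or 1.14-fold. The models seen as 1 read held 0.671% of replicate 1 and 0.791% of replicate 2, but this share depends on depth. At equal depth the order was the reverse. A random draw of 515546 reads from replicate 1 held 5007 models with 1 read, against 4076 in replicate 2. Spike-in reads on the opposite strand made up 1.08% of spike-in reads in replicate 1 and 1.14% in replicate 2, a ratio of 0.955 (Fisher's exact test, two-sided, p = 0.755). Nearly all of them lay on 4 spike-ins with 0 sense reads, with 189 of 190 in replicate 1 and 55 of 55 in replicate 2, and on spike-ins with sense reads they made up 0.0058% and 0%.

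Most models rested on little evidence. In replicate 1, 8455 models (65.1%) had 1 read and 2652 had 3 or more. In replicate 2, 4076 models (73.7%) had 1 read and 726 had 3 or more. At equal depth, a random draw of 515546 reads from replicate 1 left 7037 models in 6812 loci, 71.2% of them with 1 read. Antisense models had a median length of 1201 bases in replicate 1 and 1529 bases in replicate 2, against 614 and 1050 bases for intergenic models. A group of 214 models in replicate 1 and 61 in replicate 2 was recorded with a length of 1 base, with 1116 and 91 reads, and these rows give a position but no transcript structure.

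Loci recurred between the libraries in step with their read number. Of the loci of replicate 1, 3253 (26.2%) overlapped an antisense locus of replicate 2 on the same strand by at least 1 base, and they held 65.8% of the antisense reads. Of the loci of replicate 2, 3095 (57.8%) overlapped one of replicate 1, with 76.7% of the reads. With an overlap of at least 50% of both loci the shares were 14.9% and 34.4%, and at equal depth they were 33.7% and 42.2%. A locus with 1 read in replicate 1 was met again in 13.2% of cases, and one with 10 or more reads in 86.8%. For loci of replicate 2 these shares were 46.8% and 98.1%. The shares of intergenic loci that recurred were 16.1% in replicate 1 and 41.9% in replicate 2.

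**Figure D1:**
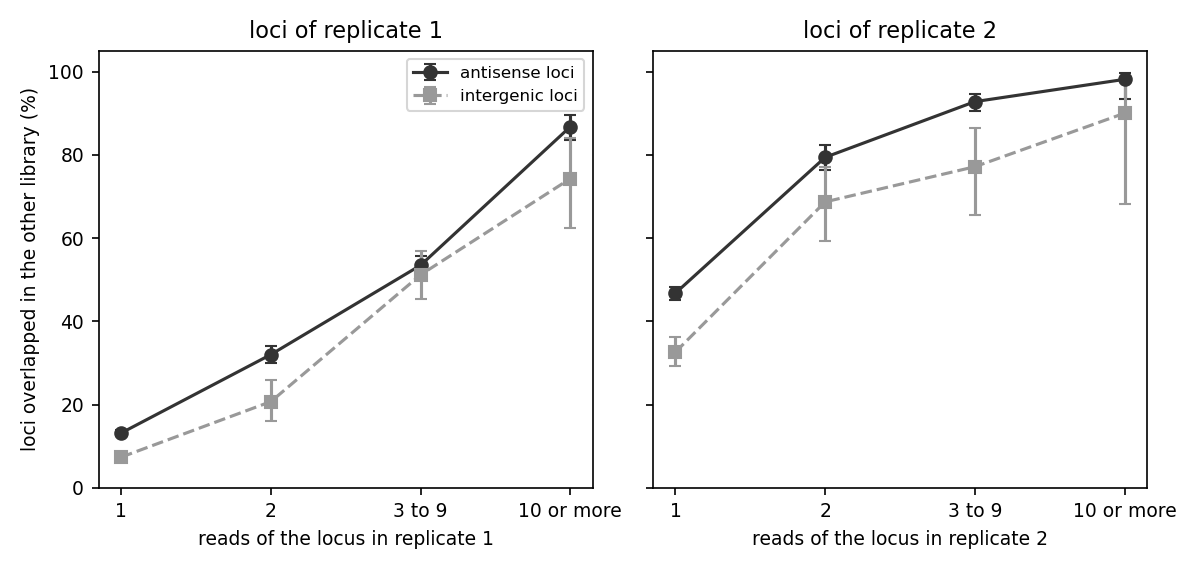
Share of loci (%, vertical axis) that overlapped a locus of the same class on the same strand in the other library, by the reads of the locus (horizontal axis), for replicate 1 on the left and replicate 2 on the right. Dark circles are antisense loci, grey squares intergenic loci, and bars exact 95% intervals; antisense loci reach 86.8% and 98.1% at 10 or more reads.

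Recurrence of a locus was seldom recurrence of an exact structure. Of 969 spliced models in replicate 1 and 446 in replicate 2, 142 had an identical chain of introns in both libraries. Of 12020 and 5085 single-exon models, 344 had the same start and end in both. A single-exon model carries no splice site, so its ends alone define it.

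Nearly all models lay within the span of their host. A position inside the host was found for 91.7% of the models in replicate 1 and 91.2% in replicate 2. Another 4.38% and 5.70% reached across the start of the host, the head-to-head arrangement. The tail-to-tail arrangement across the end of the host was found in 2.28% and 2.12%, and 0.393% and 0.398% spanned the whole host. The 166 models in replicate 1 and 35 in replicate 2 without an overlapped annotated gene on the other strand were mostly placed opposite to another new gene, in 134 and 22 cases.

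Spliced models more often crossed a boundary of the host than single-exon ones. In replicate 1, 116 of 969 spliced models crossed the host start, against 3.77% of the single-exon ones, and 7.64% against 1.85% crossed its end. In replicate 2, 82 of 446 spliced models (18.4%) crossed the start, against 4.58% of the single-exon ones, and 6.50% against 1.73% crossed the end. These are descriptions over models, which are not replicates, and no test was made.

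The bases of antisense models lay on exons of their hosts in a larger share than exons make up of the host spans, and the gap was widest for 3′ UTRs. At least 1 base of a host exon was overlapped by 59.2% of models in replicate 1 and 58.2% in replicate 2, and these models held 77.7% and 68.6% of the reads of models with a host. Wholly within host exons were 21.2% and 18.9% of the models, with 50.9% and 35.2% of the reads. Counting bases over protein-coding hosts, 3′ UTRs held 33.6% of read-weighted model bases in replicate 1 and 20.6% in replicate 2. They made up only 2.89% and 2.76% of the span of those hosts. Coding sequence held 4.80% and 4.51% of read-weighted model bases, against 2.75% and 2.60% of the span.

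**Figure D2:**
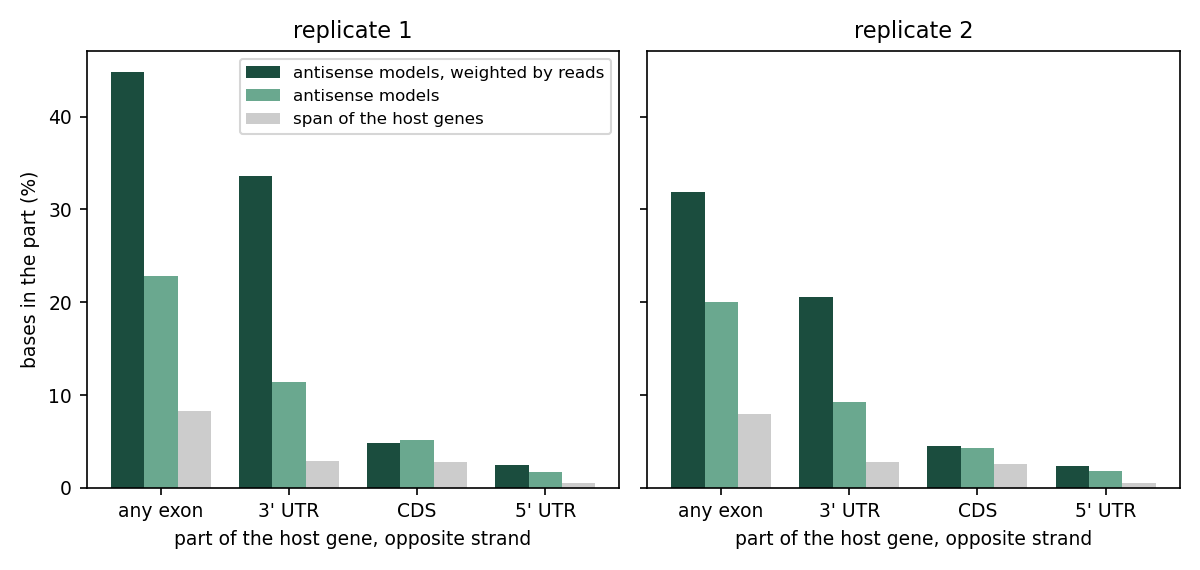
Share of bases (%, vertical axis) that lay in any exon, 3′ UTR, coding sequence (CDS) and 5′ UTR of protein-coding hosts, replicate 1 on the left and replicate 2 on the right. Dark bars weight antisense models by reads, light green bars count each model once, and grey bars give the make-up of the host gene spans; the 3′ UTR bars are 33.6%, 11.4% and 2.89% in replicate 1.

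The place in the 3′ UTR grew with abundance. Among models with an annotated host, 14.7% of those with 1 read in replicate 1 overlapped the 3′ UTR, and 73.5% of the 68 models with 50 or more reads. In replicate 2 these shares were 14.3% and 54.5%, the second of them over 11 models. The 5′ ends showed the same order. A model started exactly at the last base of an annotated transcript of its host in 8.80% of cases in replicate 1 and 7.68% in replicate 2, and such models held 27.1% and 13.9% of the reads. Among models with 50 or more reads this held for 45.6% in replicate 1 and 36.4% in replicate 2. Starts within 100 bases of such an end, exact ones included, were found for 10.6% and 9.50% of all models with a host. The settings that built the models were not stated. Whether a model end that equals an annotated end, at either boundary, is the end of the RNA was therefore not tested.

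The opposite boundary was met less often. A 3′ end lay exactly at the first base of a host transcript in 5.30% of models in replicate 1 and 5.19% in replicate 2, with 4270 and 1064 reads. Starts within 1000 bases of the start of any annotated transcript on the other strand were found for 17.8% and 17.4% of the models with a host. Both sides of that start and starts inside the host were counted, as for the leading model in the 3′ UTR of Actb. Divergent promoter transcripts were therefore not counted apart. Starts from 0 to 1000 bases beyond the end of an annotated transcript on the same strand, where transcription that runs past a gene end would lie, were found for 2.82% and 2.12% of the models, with 8.18% and 6.01% of the reads.

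Many models that ended in a host 3′ UTR stopped where the genome continued with A. Bases beyond the end could be read for 1750 of 1764 such models in replicate 1 and 685 of 689 in replicate 2. At least 12 of the next 20 bases were A in 821 models (46.9%) in replicate 1 and 389 (56.8%) in replicate 2. Over all windows of 20 bases on the same strand of the same 3′ UTRs, 3.38% and 3.63% reached 12 A. The runs at Actb, Tacc1 and Soat1 printed above are of this kind. Among models with 10 or more reads, 139 of 246 in replicate 1 and 24 of 38 in replicate 2 ended before such a run. Weighted by reads, A-rich ends made up 53.5% in replicate 1 and 57.1% in replicate 2. The reads of these A-rich models were 0.628% of all reads in replicate 1 and 0.247% in replicate 2, which is 2.55-fold. The ratio was similar, at 2.50-fold, over all models that touched a host 3′ UTR, whatever their end. Of the A-rich reads, 2077 in replicate 1 and 97 in replicate 2 were of the Actb locus.

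**Figure D3:**
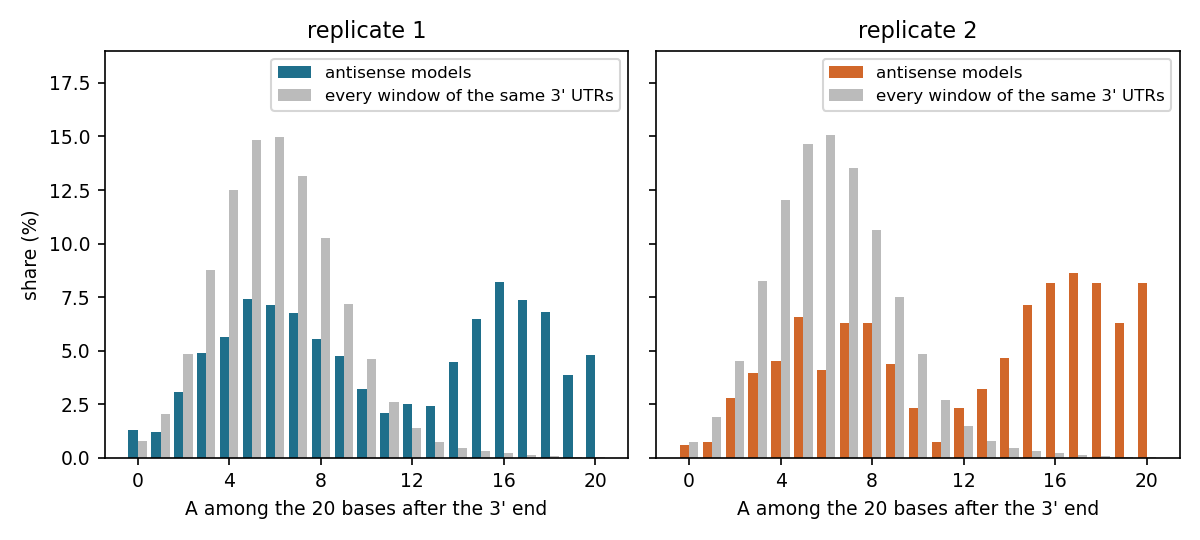
Number of A among the 20 genome bases after the 3′ end (horizontal axis) and share of models or windows (%, vertical axis), for antisense models that end in a host 3′ UTR (coloured bars) and for every 20-base window on the same strand of the same 3′ UTRs (grey bars), replicate 1 on the left and replicate 2 on the right. The models form a second group at high A counts, with 46.9% and 56.8% of them at 12 A or more, against 3.38% and 3.63% of the windows.

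A polyadenylation signal was little more frequent at these ends than elsewhere in the same sequence. The letters AATAAA or ATTAAA on the strand of the model were found within the last 50 bases in 11.4% of the models with known bases in replicate 1 and 10.8% in replicate 2, against 7.41% and 7.79% of all windows of that length. Models with an A-rich end had them in 10.5% and 8.83% of cases, and the other models in 12.3% and 13.6%. Priming on A runs was not tested, and the signal search is a description of letters.

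Among the 15 most abundant loci found in both libraries, the leading model, the one with the most reads, was always unspliced. In 14 of the 15 it lay wholly in host exons in each library, and 14 of the 15 were more abundant in replicate 1. The antisense reads exceeded the sense reads of the host in both libraries at 10 loci and in replicate 1 only at 4. In 9 loci the 3′ end of the leading model was the same base in both libraries.

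The most abundant locus lay in the 3′ UTR of Actb, the gene of cytoplasmic beta-actin, and differed most between the libraries among these 15. It had 2077 reads (1649 CPM) in replicate 1 and 97 reads (188 CPM) in replicate 2, while the host had 1255 and 505 sense reads. The leading model of replicate 1 was 268 bases long (chr5:142903234-142903501, plus strand) and that of replicate 2 was 421 bases long, with the same 5′ end at the end of an annotated Actb transcript. The 2 leading models ended at different bases, each before an A run, with 18 A of 20 in replicate 1 and 20 of 20 in replicate 2. The log2 ratio was 3.12 (two-sided Fisher's exact test, Benjamini-Hochberg adjusted p = 4.39e-188).

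Tacc1, a coiled-coil protein of the centrosome, had 433 and 73 antisense reads in replicates 1 and 2 against 82 and 19 sense reads. Its leading model was the same 3482 bases in both libraries (chr8:25154552-25158033, plus strand), from the last base of Tacc1 to a run of 20 A. Sept2, a septin GTPase, was the locus of the 15 with the lower level in replicate 1, with 230 reads (183 CPM) against 120 reads (233 CPM) in replicate 2, and the difference did not pass the test (adjusted p = 0.136, Fisher's exact test).

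At 4 hosts the antisense reads were above the sense reads in replicate 1 and below them in replicate 2. Ywhaz, which encodes an adaptor protein that binds phosphorylated serines, had 458 antisense and 215 sense reads in replicate 1, and 43 antisense and 134 sense reads in replicate 2. Gnb1, a G protein beta subunit, had 395 antisense and 313 sense reads in replicate 1, and 32 and 152 in replicate 2. Ptp4a2, a small protein phosphatase, had 427 antisense and 195 sense reads in replicate 1, and 34 and 119 in replicate 2. Actb was the fourth. The log2 ratios of the antisense loci were 2.11 for Ywhaz, 2.32 for Gnb1 and 2.34 for Ptp4a2, while the sense CPM of the hosts were 171 and 260 for Ywhaz and 248 and 295 for Gnb1 in replicates 1 and 2.

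Several hosts were themselves noncoding. Neat1, the scaffold RNA of nuclear paraspeckles, had 224 and 69 antisense reads against 107 and 30 sense reads, and its leading unspliced model of 6445 bases in replicate 1 (chr19:5835439-5841883, plus strand) stopped at the A run printed above. The lincRNA 2900097C17Rik had 259 and 62 antisense reads against 138 and 21 sense reads, and Tmem250-ps had 365 and 86 against 43 and 21. Gm26917 (1176 and 304 antisense reads) and the rRNA gene CT010467.1 (464 and 30) lie side by side on chromosome 17 at annotated ribosomal RNA sequence, which exists in many near-identical copies, so their counts are uncertain.

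A pair of these loci lay at genes of adrenal interest. Gml2, a gene neighbouring Cyp11b1, had 262 and 98 antisense reads (208 and 190 CPM) against 100 and 11 sense reads, and its leading model lay in an intron with no exonic base (chr15:74831563-74833444, minus strand, in replicate 1). In replicate 2 the leading model began exactly at the 3′ end of Cyp11b1, which is annotated on the same strand, and in replicate 1 it began 681 bases beyond that end. Kcnk3, a background potassium channel of cortex cells, had 314 and 53 antisense reads against 1357 and 1790 sense reads, and it was the host of the 15 with more sense than antisense reads in both libraries.

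**Figure D4:**
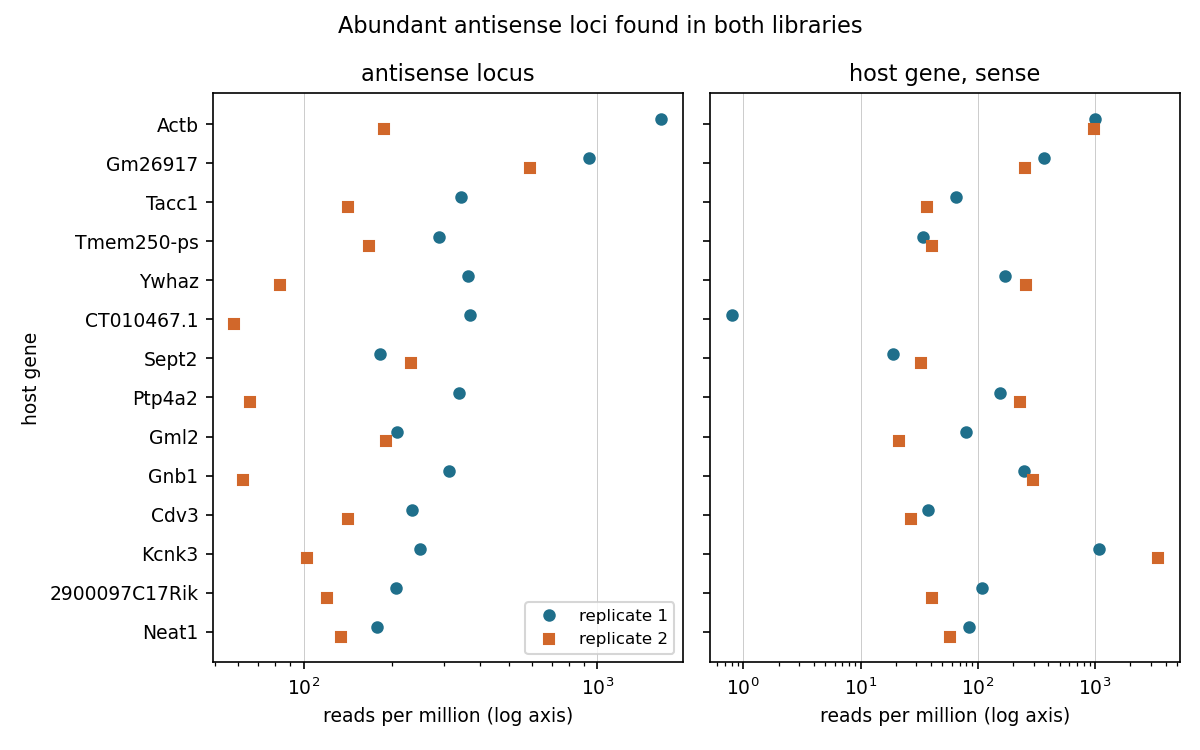
Levels in CPM (horizontal log axes) of 14 of the 15 most abundant antisense loci found in both libraries (left) and of the sense reads of their hosts (right), with circles for replicate 1 and squares for replicate 2. The Actb locus stands at 1649 and 188 CPM; CT010467.1 had 0 sense reads in replicate 2 and so has no square on the right.

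Splicing was rare in this set. Spliced models made up 969 (7.46%) in replicate 1 and 446 (8.06%) in replicate 2, and they held 4.48% and 6.32% of the antisense reads. The shares were 14.7% and 15.2% among intergenic models, 47.0% and 48.9% among models of annotated antisense genes, and 85.8% and 89.2% among models of all annotated genes. Of the spliced models of replicate 1, 645 had 2 exons, 187 had 3 and 137 had 4 or more. The reads of spliced models made up 0.154% of all reads in replicate 1 and 0.135% in replicate 2, a ratio of 1.14 (two-sided Fisher's exact test, p = 0.00246), which was smaller than the 1.61 of all antisense reads.

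Spliced models recurred more often than single-exon models of the same read number. With 1 read, 35.6% of the spliced and 13.7% of the single-exon models of replicate 1 overlapped a model of replicate 2. In replicate 2 these shares were 61.3% and 47.0%. A spliced model covers more of the genome than a single-exon one, since its span includes introns, and this was not adjusted for.

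About 1 in 4 introns of the set had exactly the coordinates of an annotated intron on the other strand, a mirrored intron. This held for 428 of 1673 introns (25.6%) in replicate 1 and 157 of 682 (23.0%) in replicate 2. Every intron was mirrored in 270 spliced models of replicate 1 and 114 of replicate 2, which held 46.7% and 39.9% of the spliced reads. These models lay inside the host in 98.9% and 98.2% of cases, against 65.5% and 61.1% of the other spliced models. Of the 142 intron chains present in both libraries, 53 (37.3%) were wholly mirrored, against 26.2% of the chains found in replicate 1 alone and 20.1% of those found in replicate 2 alone. Loci recurred in step with their read number, as given above, and read number was not adjusted for here.

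The join sequences printed above show what mirroring means at 3 of these loci. Each antisense join is the reverse complement of the mRNA join, base for base. An intron that is read with the usual donor GT and acceptor AG in the host would carry CT and AC on the other strand, and the intron bases can be read where another annotated transcript retains them. This was so for 136 of 1673 introns in replicate 1 and 55 of 682 in replicate 2. In models with every intron mirrored, all of the 32 readable introns of replicate 1 and the 13 of replicate 2 carried CT and AC, and 0 carried GT and AG. This follows from the shared coordinates wherever the host intron has GT and AG, and is not a separate observation. In models with 0 mirrored introns, 80 of 92 readable introns in replicate 1 and 34 of 40 in replicate 2 carried GT and AG, while 1 and 0 carried CT and AC. How the strand of each read was set is not given in the sources used here.

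Of the 15 most abundant loci with spliced reads in both libraries, the leading model was spliced in 11 in replicate 1 and 13 in replicate 2. Every intron of the leading model was mirrored in 8 of the 11 and in 10 of the 13. Its 3′ end lay at the first base of a host transcript in 8 of the 15 loci in replicate 1 and 9 in replicate 2. Of the 15, 2 were called different between the libraries, Mbnl1 and Ccdc80, both higher in replicate 1. Over all tested features 10.2% were called, and of the tested antisense loci 15.1%. The call of Ccdc80 was lost when no minimum of reads was set.

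Mc2r, the corticotropin receptor, had the most spliced antisense reads, with 142 in replicate 1 and 38 in replicate 2. The locus held 148 and 38 reads in all (117 and 73.7 CPM), and the host had 99 and 42 sense reads. The leading model of replicate 1, with 130 reads, ran over the full host interval with 3 exons (chr18:68406907-68429320, plus strand) and both of its introns were mirrored, so that it has the exons of an annotated Mc2r transcript on the other strand. That of replicate 2 began further in and ended at the same base. The difference between the libraries did not pass the test (log2 ratio 0.66, adjusted p = 0.0527, Fisher's exact test).

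Crebbp, a histone acetyltransferase, had 83 antisense reads in replicate 1 and 34 in replicate 2 against 11 and 5 sense reads, and 63 and 30 of the antisense reads were spliced. The same model led in both libraries, 2344 bases in 6 exons (chr16:4128444-4213997, plus strand), with all 5 introns mirrored and its 3′ end at the annotated Crebbp start. The locus as a whole stood at 65.9 CPM in both libraries, and this leading model held 39 of its reads in replicate 1 and 24 in replicate 2. Igf1r, the receptor of insulin-like growth factor, had 53 and 30 spliced antisense reads, 52 and 30 of them from the leading models, which share 1 mirrored intron. The leading model ended at the Igf1r start in replicate 1, and in replicate 2 it ran past the start.

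Nr2f2, an orphan nuclear receptor, had 104 and 45 antisense reads, of which 54 and 31 were spliced, against 51 and 18 sense reads. In replicate 2 the leading model had 3 exons and 2 mirrored introns. Neat1 had 84 and 27 spliced antisense reads beside its unspliced model. Mbnl1, a regulator of splicing, had 122 and 22 antisense reads, with 80 and 6 of them spliced (log2 ratio of the locus 1.16, adjusted p = 0.00177, Fisher's exact test). Its leading model of replicate 1 joined 2 exons over a mirrored intron and stopped before an A-rich stretch with 16 A of 20.

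A minority of the named spliced loci had introns of their own. The leading models antisense to Kng1, the kininogen gene, had 5 exons in replicate 1 and 4 in replicate 2 with 0 mirrored introns, and the locus had 20 and 8 reads against 12 and 1 sense reads. The models at Gm7247 (17 and 8 reads) and 9030025P20Rik (27 and 7 reads) likewise had 0 mirrored introns, and that at 9030025P20Rik reached across the host end. At these 3 loci the intron chain cannot be read from the annotated host transcripts.

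The hosts numbered 6973 in replicate 1 and 3808 in replicate 2, with 3116 in both, and 94.6% and 94.7% of the models with a host lay opposite to a protein-coding gene. Genes with more sense reads were more often hosts, yet antisense reads did not keep pace with sense reads. In replicate 1, 23.3% of the genes with 1 to 9 sense reads and 66.4% of those with 1000 or more were hosts. In replicate 2 the shares were 17.6% and 44.4%. Per 100 sense reads there were 26.9 antisense reads in the lowest class and 1.02 in the highest in replicate 1, and 12.9 and 0.127 in replicate 2.

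Across hosts with sense reads, antisense and sense reads were weakly related. Spearman's rho was 0.188 over 6366 hosts in replicate 1 and 0.104 over 3340 hosts in replicate 2. The 2 measures of a host share the library, and the genes are not independent. Antisense CPM per host in replicates 1 and 2 had a rho of 0.598 over the 3116 hosts found in both.

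**Figure D5:**
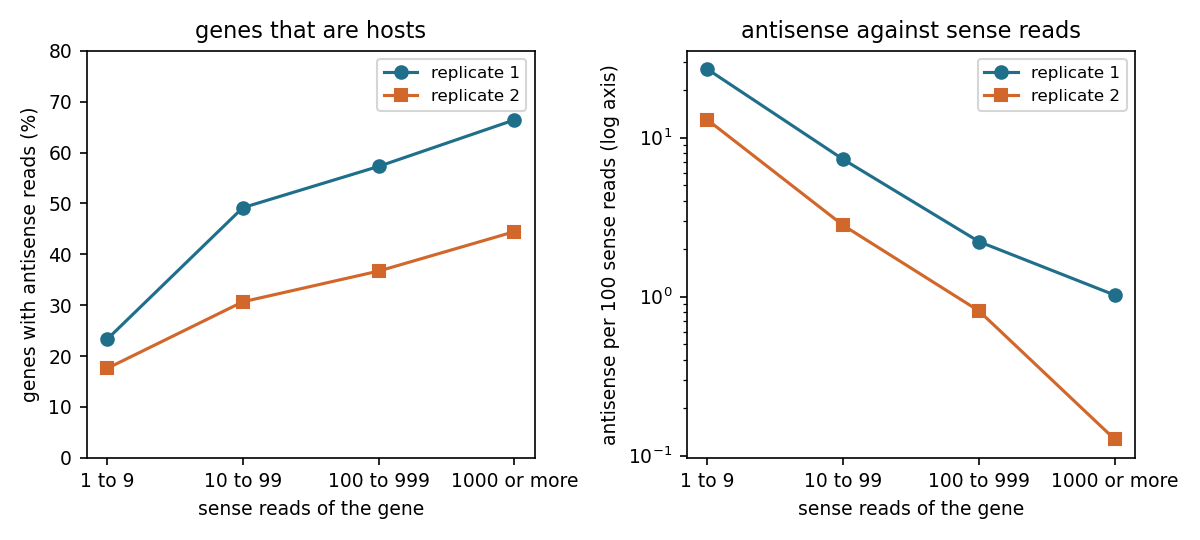
Left: share of annotated genes (%) that host antisense reads, by the sense reads of the gene. Right: antisense reads per 100 sense reads (log axis) in the same classes, with circles for replicate 1 and squares for replicate 2. The share climbs to 66.4% and 44.4% while the ratio drops to 1.02 and 0.127.

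Host genes were also counted over 8 gene lists, of adrenal functions and of adipocyte, clock, imprinted, and immediate early and stress genes. Of all 10181 annotated genes with at least 10 sense reads over both libraries, 54.7% were hosts in either library and 25.1% in both. The shares over all genes were not matched to the lists for sense reads, and genes with more sense reads were more often hosts. Of 21 measured steroidogenesis genes, 16 were hosts and 11 were hosts in both libraries. Their antisense reads numbered 527 in replicate 1 and 144 in replicate 2 beside 101147 and 49058 sense reads. Mc2r held the most, and its accessory protein gene Mrap had 45 and 15 antisense reads in a locus inside an intron with no exonic base. Gramd1b, a sterol transfer protein gene, had 30 and 26 antisense reads (23.8 and 50.4 CPM). Of the P450 genes, Cyp11b1 was a host in both libraries and Cyp11a1 in 1, while Cyp21a1 and Cyp11b2 were not hosts.

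The zonation list, with channels, receptors and Wnt pathway genes of the outer cortex, had 8 hosts of 10 measured genes, 6 of them in both libraries. Agtr1a, the angiotensin receptor, had 41 and 12 antisense reads against 45 and 71 sense reads, and its leading models lay mostly in an intron. Of 30 genes of cholesterol supply, 17 were hosts and 8 in both. Soat1, which esterifies cholesterol for storage, led them with 139 and 30 antisense reads (110 and 58.2 CPM) against 418 and 477 sense reads. Of these antisense reads, 95 and 23 were of a 3′ UTR model of 4008 bases that was the same in both libraries (chr1:156424525-156428532, plus strand).

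Of 23 measured medulla genes, 12 were hosts and 7 in both. The whole list of 26 genes, with 14 hosts, had 78 and 13 antisense reads beside 17982 and 4805 sense reads. Chgb, a granin of chromaffin granules, had 16 and 1 antisense reads against 6470 and 1178 sense reads, and Th and Pnmt were not hosts. Of 17 adipocyte genes, 9 were hosts and 6 in both. Plin1, the lipid droplet coat protein gene, had 151 and 8 antisense reads (120 and 15.5 CPM) in its 3′ UTR, with a log2 ratio of 2.87 (adjusted p = 1.86e-12, Fisher's exact test), while its sense CPM were 291 and 306. The counts were 10 of 14 for clock genes with 4 in both, 8 of 13 for imprinted genes with 4 in both, and 8 of 16 for immediate early and stress genes with 2 in both. No list was tested, and with 10 to 30 measured genes a list these counts are descriptions.

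The libraries were compared feature by feature over 11017 annotated genes and merged loci with at least 10 reads over both, of which 1120 (10.2%) were called at an adjusted p under 0.05 and at least 2-fold. Of the 746 antisense loci tested, 113 (15.1%) were called. Of these, 104 (13.9%) were higher in replicate 1, against 4.31% of all features, and 9 (1.21%) were higher in replicate 2, against 5.85% of all features. Intergenic new loci leaned the same way, with 17 of 90 (18.9%) higher in replicate 1, 5 (5.56%) higher in replicate 2 and a median log2 ratio of 0.92. With TMM totals the calls numbered 110 and 5. The median log2 ratio of the antisense loci was 0.64, against 0.06 over all features. With 1 library a side, these calls cover counting error and say nothing on animals. Marker genes of the gland differed between the libraries too, as given above, and their part in the calls was not tested.

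Of the calls in favour of replicate 2, the clearest were at loci with 0 reads in replicate 1. A locus at chr13:55184918-55189152 had 0 and 25 reads (adjusted p = 2.58e-12, Fisher's exact test). A locus labelled with the pseudogene AC162923.1, whose leading model at chr17:74140821-74140999 lay opposite to no annotated gene, had 0 and 17 (adjusted p = 2.90e-08, Fisher's exact test). Both kept the call under each setting run in which they were tested. Other calls rested on few reads or a small difference. Fxr2, an RNA-binding protein gene, had 9 and 13 antisense reads (7.14 and 25.2 CPM) in an intron. Acsl4, an acyl-CoA synthetase gene, had 3 and 7, and Mtss1, a gene of the actin cytoskeleton, had 4 and 8. Gramd1b had 30 and 26, with a log2 ratio of -1.09 (adjusted p = 0.0435, Fisher's exact test). The calls of Gramd1b, Acsl4 and Mtss1 were lost with TMM or median-of-ratios totals, and that of Fxr2 when replicate 1 was thinned to the depth of replicate 2.

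Loci found in 1 library only included some with many reads. In replicate 1 these were a model of 3519 bases at chr4:145570054-145573572 on the minus strand with 130 reads, one of 2129 bases at chr11:100459542-100461670 on the plus strand with 75 reads, and a single base at chromosome 12 position 24638108 with 68 reads. Each had 0 reads in replicate 2, where 3 reads equal 5.82 CPM, and their levels in replicate 1 were 103, 59.5 and 54.0 CPM. In replicate 2 the most abundant was a model of 4235 bases at chr13:55184918-55189152 on the plus strand with 25 reads (48.5 CPM), against 0 in replicate 1, where 3 reads equal 2.38 CPM. None of these 4 lay opposite to an annotated gene. Their hosts in the tables were new genes of 1 to 3 reads. Set, with 46 reads at a single base in its 3′ UTR, and Entpd7, with 35 reads in a 3′ UTR model of 368 bases, were called as well and had 0 antisense reads in replicate 2.

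Among loci found in both libraries whose hosts had at least 10 sense reads in all, those with the most antisense reads for each sense read were at hosts with few reads. Pus7l, a pseudouridine synthase gene, had 121 and 39 antisense reads against 8 and 2 sense reads. Of the antisense reads, 117 and 36 were of unspliced leading models that began beyond the host end and reached into the host (chr15:94521397-94524473, plus strand, in replicate 1). Slc5a3, the myo-inositol transporter gene, had 59 and 25 against 10 and 2, from the same 2050 bases of its 3′ UTR in both libraries (chr16:92080817-92082866, minus strand). Sept2, Crebbp and Tmem250-ps completed the 5 highest ratios, and none of the 5 was called different between the libraries.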

How the data were processed

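Per the labels, total RNA of 2 adrenal libraries went through the long-read pipeline of ENCODE (protocol version 3.0), and the assembly was mm10. The authors deposited a table of whole read counts per transcript model and a GTF for each library, with no normalisation, and the readme files state that the reads come from filtered alignments. Annotated models follow GENCODE release M21 and new models carry the source TALON, per the file headers and rows. The version and settings of TALON, the aligner, the sequencer and the setting of read strand were not stated in the material at hand. All value columns were used.

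From these counts, rows classed Antisense were kept without spike-ins. The host was the annotated gene on the other strand with the largest exonic overlap. Overlap, ends and introns were compared by exact coordinates. CPM used all reads without spike-ins (1259794 and 515546). Shares have exact Clopper-Pearson 95% intervals. For each feature the reads of both libraries were compared with Fisher's exact test (two-sided), after loci of both libraries were merged by same-strand overlap and p was adjusted (Benjamini-Hochberg) over 11017 features with at least 10 reads over both. A call needed an adjusted p under 0.05 and 2-fold, with 0.5 reads added for the log2 ratio. A single group of 2 libraries leaves no residual degrees of freedom for a count model, and edgeR 4.0.16 and DESeq2 1.42.0 gave only effective totals. The Fisher step was tested on simulated data. Python 3.11.15, pandas 2.3.3, scipy 1.17.1 and R 4.3.3 were used.

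Named loci were the 15 most abundant shared ones, up to 15 spliced shared ones with at least 3 spliced reads in each library, the 3 most abundant of each library alone, the 5 with the highest ratio to a host of at least 10 reads, the 3 most abundant per host list and up to 5 called ones a direction, of which the text gives those with most bearing. For 1 of the abundant loci the values are not reported here. Members and lists were chosen with earlier results of these data known. Sequences are GENCODE M21 transcript bases on mm10 with RefSeq promoters, and no genome was used here. A set of 20 bases after a model end was known for 29.5% of models in replicate 1 and 27.7% in replicate 2, and intron bases for 8.13% and 8.06% of introns, so splice dinucleotides and end sequences over all models were not computed. The restriction to ends in host 3′ UTRs was made after seeing the data.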

Additional observations from a re-analysis of the deposited data

Results flagged for a closer look

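Antisense reads also occurred on spike-ins, which lie outside the set. They numbered 190 of 17516 spike-in reads in replicate 1 and 55 of 4842 in replicate 2. On spike-ins with no sense read there were 189 antisense reads in replicate 1 and 55 in replicate 2, spread over the same 4 spike-ins in both libraries. ERCC-00009 had 144 and 41 of them, ERCC-00116 had 41 and 11, ERCC-00059 had 2 and 1, and ERCC-00099 had 2 and 2. On spike-ins with sense reads there was 1 antisense read beside 17326 sense reads in replicate 1, and 0 beside 4787 in replicate 2, where a count of 0 allows up to 3 reads. No explanation was tested.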

How the results depend on the processing

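Means over both libraries are given. Requiring at least 3 reads left 1654 loci instead of 8887, moved the spliced share to 3.26% instead of 6.80%, the share inside the host to 90.2% instead of 91.4%, and the exonic share to 71.2% instead of 58.7%. The exonic share was 24.7% when at least 50% of the bases had to be exonic, and 73.1% of reads. With protein-coding hosts only, 93.7% lay inside. With ends within 10 bases, 27.7% of introns were mirrored instead of 24.3%. The share of loci found in the other library was 24.6% with 50% reciprocal overlap, 31.4% with 3′ ends within 50 bases, 37.9% after thinning and 52.4% (23.5% and 81.3%) at 3 reads or more, instead of 42.0%. Thinning replicate 1 to the depth of replicate 2 left 75 of 113 calls in number, with 376 loci tested instead of 746. TMM totals gave 110 calls higher in replicate 1 and 5 in replicate 2, instead of 104 and 9. Counted over loci found in both libraries, hosts numbered 6 of medulla, 7 of cholesterol supply, 6 of zonation, 5 of imprinted, 2 of stress, 4 of clock and 4 of adipocyte genes, instead of 14, 17, 10, 11, 8, 11 and 9, with list genes under 10 sense reads included. Leaving out 1 library gives the value of the other: 2.13% to 3.44% of reads, 6.36% to 7.24% of loci spliced, 91.2% to 91.7% inside, 58.2% to 59.2% exonic, 23.0% to 25.6% of introns mirrored and 46.9% to 56.8% of 3′ UTR ends A-rich.

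Without the Actb locus the read shares were 3.27% and 2.11% in replicates 1 and 2, and without the rRNA loci 3.31% and 2.07%. Of 329 values for 59 named loci, 300 kept direction and call, 14 lost the call, 4 gained it and 11 changed sign. The sign changes were in log2 ratios near 0 that were not called: Crebbp 0.047 and 0.053, Kng1 0.042 and 0.048, Nr4a3 and Scd1 0.052 and 0.058 with TMM and median-of-ratios totals, Slc5a3 1.2e-06 with median-of-ratios totals, Nr2f2 0.12 and Gm7247 0.16 after thinning. The calls of Gramd1b, Acsl4 and Mtss1 were lost with either scaling and with no read minimum, and those of Fxr2, Ccdc80 and Grb10 with no read minimum. Those of Gramd1b and Fxr2 were lost after thinning, and Dhcr7 and Impact gained a call under other settings. The causes were not tested. No paired analysis was possible because there is only 1 group. Splice dinucleotides, end sequences and polyadenylation signals over all models, with their alternatives, were not run, since their bases were known for under 30% of models. Depth limits single loci, since 65.1% and 73.7% of models had 1 read.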

Other observations

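A few antisense models lay on unusual chromosomes. The mitochondrial chromosome had 11 models with 37 reads in replicate 1 and 6 models with 9 reads in replicate 2. Chromosome Y had 4 models with 7 reads in replicate 1 and 0 in replicate 2, although both libraries are labelled female. The classes of new genes were not always the same in both libraries: 56 antisense loci of replicate 1 and 40 of replicate 2 overlapped an intergenic new gene of the other library on the same strand. Models on the strand of an annotated gene that they overlapped numbered 218 in replicate 1 and 84 in replicate 2, with 1123 and 295 reads. The host named in the tables was the host used here for 96.2% of loci in replicate 1 and 96.6% in replicate 2.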
